A study of Mus musculus with 6 samples.

Results

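The nuclear genes of respiratory complexes II to V and of cytochrome c were compared between WT and Zfp335-deficient Tregs. Their 61 members were taken by symbol from the 32285 rows of the gene count table, as every symbol that begins with Atp5, Uqcr, Cox4 to Cox8, Cox10 to Cox19 or Sdha to Sdhd, together with Cyc1 and Cycs. Of these, 8 belong to complex II, 9 to complex III, 26 to complex IV and 17 to complex V, and Cycs stands alone. The rule uses symbols and no measured values.

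Bulk RNA-seq was carried out on splenic CD4+CD25+ Tregs of C57BL/6 mice, with 3 WT and 3 KO libraries. The KO mice carried ERCre and Zfp335 fl/fl, so that Cre, fused to a mutant estrogen receptor, deletes Zfp335 once tamoxifen is given. The labels call the controls wild-type littermates, whereas the methods of the study describe ERCre mice without the floxed allele that received tamoxifen as well. According to those methods, the mice were 6 weeks old, were injected on days 1, 3 and 5 and were killed on day 7. Neither the promoter that drives this Cre nor any pooling of animals is given in the sources used here, and deletion is not described as limited to Tregs. Nothing states that the libraries came from separate mice, so the p-values measure the spread between these samples, which may be technical.

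Complex II, or succinate dehydrogenase, passes electrons from succinate to ubiquinone and is also an enzyme of the citric acid cycle. Complex III hands electrons from ubiquinol to cytochrome c, complex IV transfers them to oxygen, and complex V, the ATP synthase, uses the resulting proton gradient to make ATP. Complex II is encoded entirely in the nucleus, whereas complexes III, IV and V combine nuclear subunits with subunits encoded in mitochondrial DNA. Dedicated assembly factors build each complex, and for complexes II to IV some of them help to insert flavin, heme, copper or iron-sulfur centers. Tregs are known to draw on oxidative phosphorylation more than activated conventional T cells do.

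Many promoters of this family are known to hold sites for NRF1, for the ETS factor GABP and for YY1. The stretches before the RefSeq start on GRCm38.p6 are shown for 4 members, with a match to TGCGCA (the NRF1 core) or to CCGGAAG or its reverse complement CTTCCGG (ETS) in capitals, and bases in annotated exons left out. Cox7a2l was the member that fell, Cox6b2 the member with the largest rise, Cox5b a member that rose and holds a match, and Atp5l a member that was not called and holds matches of both kinds.
Cox7a2l, chr17:83514334-83514583, minus strand: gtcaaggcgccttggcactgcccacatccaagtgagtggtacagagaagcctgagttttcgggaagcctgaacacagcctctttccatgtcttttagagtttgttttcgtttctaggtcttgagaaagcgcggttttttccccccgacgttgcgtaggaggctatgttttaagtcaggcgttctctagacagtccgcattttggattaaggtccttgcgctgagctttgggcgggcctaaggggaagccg
Cox6b2, chr7:4753095-4753225, minus strand: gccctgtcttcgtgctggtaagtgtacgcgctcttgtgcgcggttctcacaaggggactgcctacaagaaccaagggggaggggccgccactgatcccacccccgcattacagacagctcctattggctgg
Cox5b, chr1:36691237-36691448, plus strand: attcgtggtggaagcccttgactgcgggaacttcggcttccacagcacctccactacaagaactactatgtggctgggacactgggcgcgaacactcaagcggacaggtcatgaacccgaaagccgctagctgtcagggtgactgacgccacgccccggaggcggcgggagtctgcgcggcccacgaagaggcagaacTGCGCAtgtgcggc
Atp5l, chr9:44920752-44920992, minus strand: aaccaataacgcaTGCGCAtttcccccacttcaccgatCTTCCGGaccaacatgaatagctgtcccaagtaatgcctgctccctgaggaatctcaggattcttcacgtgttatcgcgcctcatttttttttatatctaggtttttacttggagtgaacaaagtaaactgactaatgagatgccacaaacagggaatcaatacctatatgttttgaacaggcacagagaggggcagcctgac

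RefSeq gave a promoter window of 250 bases before to 50 bases after the start for 46 of the 61 members and for 27025 genes in all. Within these whole windows, CCGGAAG was found on either strand in 20 members (43.5%) and in 9.9% of all genes, and TGCGCA, which is its own reverse complement, in 9 members (19.6%) and in 8.8% of all genes. The YY1 letters AAGATGG, or CCATCTT on the other strand, were found in 4 members (8.7%) and in 7.3% of all genes. At least 1 of these motifs was present in 3 of the 6 called members with a window and in 24 of the 38 members with a window that were tested and not called. The Cox7a2l stretch lies inside the longer span that GENCODE gives this gene, outside its exons.

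The library totals lay between 133283969 and 209041812 counts. Zfp335 stood at 115.2 to 124.4 CPM in WT libraries and at 14.3 to 15.1 CPM in KO libraries. Foxp3, the defining factor of Tregs, had 1136 ± 17.4 CPM in WT against 1052 ± 9.24 CPM in KO libraries (SD, n = 3 each). It was called as lower (adjusted p = 0.0163 by edgeR's quasi-likelihood test). Of 6 Treg genes tested, 3 were called (50%, against 24.1% of all genes), 1 as higher and 2 as lower. Ctla4 rose from 410.3 ± 9.03 to 645.3 ± 8.93 CPM (edgeR adjusted p = 9.56e-09). Il2ra fell from 479.6 ± 16.0 to 433.4 ± 5.99 CPM (edgeR adjusted p = 0.00658). Of 27 markers of other cells that were tested, 19 fell in KO and 0 rose (edgeR's quasi-likelihood test, adjusted p under 0.05). Their summed level was 36.6 to 43.5 CPM in WT and 1.81 to 2.31 CPM in KO for 6 red cell genes (led by Hba-a1), and 17.5 to 23.2 CPM against 0.878 to 1.30 CPM for 6 neutrophil genes (led by Ngp). The 5 B cell genes (led by Cd79b) summed to 45.4 to 49.5 CPM in WT and 21.1 to 23.0 CPM in KO, and the 5 myeloid genes (led by Lyz2) to 41.8 to 46.1 CPM and 28.1 to 30.3 CPM. Of these 5 myeloid genes, only 2, Lyz2 and Itgam, were called as lower. Csf1r lay at 7.63 to 9.51 CPM in WT and 9.74 to 10.9 CPM in KO without being called, and Adgre1 overlapped between the groups. The CD8 T cell genes (2, led by Cd8b1) lay between 8.34 and 9.71 CPM in WT and between 8.62 and 8.65 CPM in KO, and the NK cell genes (3, led by Klrb1c) between 10.3 and 10.6 CPM and between 9.90 and 11.4 CPM. Xist, the RNA that coats the silenced X chromosome in females, was at most 0.424 CPM in WT and at least 123.9 CPM in KO. Y-linked genes were counted in all 6 libraries and did not move alike. Ddx3y was at 98.3 to 105.2 CPM in WT and 76.6 to 80.0 CPM in KO. Kdm5d (42.3 to 44.7 and 34.9 to 36.5 CPM) and Uty (17.2 to 17.6 and 11.5 to 12.2 CPM) were also lower in KO. Eif2s3y overlapped, at 44.1 to 49.7 CPM in WT and 45.3 to 48.1 CPM in KO. The sex of the animals is not given in the sources used here. A difference in sex makeup and the genotype cannot be told apart in these libraries. The part of these differences in the results on the respiratory genes was not tested, and in bulk RNA fewer cells of a type and less RNA per cell cannot be told apart.

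Of the 61 members, 58 passed the filter on low counts. The remaining 3 were tissue isoforms of complex IV subunits: Cox7b2 and Cox8c had 0 counts in every library, and Cox8b had between 0 and 9 counts. In KO, 7 members rose and 1 fell (edgeR's quasi-likelihood test, adjusted p under 0.05). These 8 made up 13.8% of the members tested, against 24.1% of all genes tested (12.0% higher, 12.1% lower). KO libraries lay wholly above WT libraries for 12 members and wholly below for 5, together 29.3%, whereas 38.3% of all genes showed such separation. With the cutoffs of the study (a change of 1.5-fold or more, p under 0.05, adjusted p under 0.1), only Cox6b2 was called, as higher, against 6.95% of all genes (2.58% higher and 4.37% lower). The study states these cutoffs for DESeq2 p-values in Tregs of younger Foxp3Cre mice, whereas edgeR p-values were used here.

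The members moved little in either direction. Their log2 fold changes were positive for 29 and negative for 29, with a median of -0.008 against -0.004 for all genes tested. The median size of the log2 fold change, regardless of sign, was 0.08 for the members and 0.15 for all genes. The genes tested also include ones with low counts and wide errors, and abundance was not matched. Among genes with a mean of at least 1 CPM, 11 of 55 members and 33.1% of all genes were called. The split of calls moved with the scaling: 6 members were higher and 5 lower with upper-quartile factors, 5 higher and 6 lower with the library size alone, and 6 higher and 7 lower with limma-voom after quantile normalization. The largest shift came without WT replicate 1, when 11 members were called as higher and 8 as lower and 28.2% of all genes were called.

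**Figure D1:**
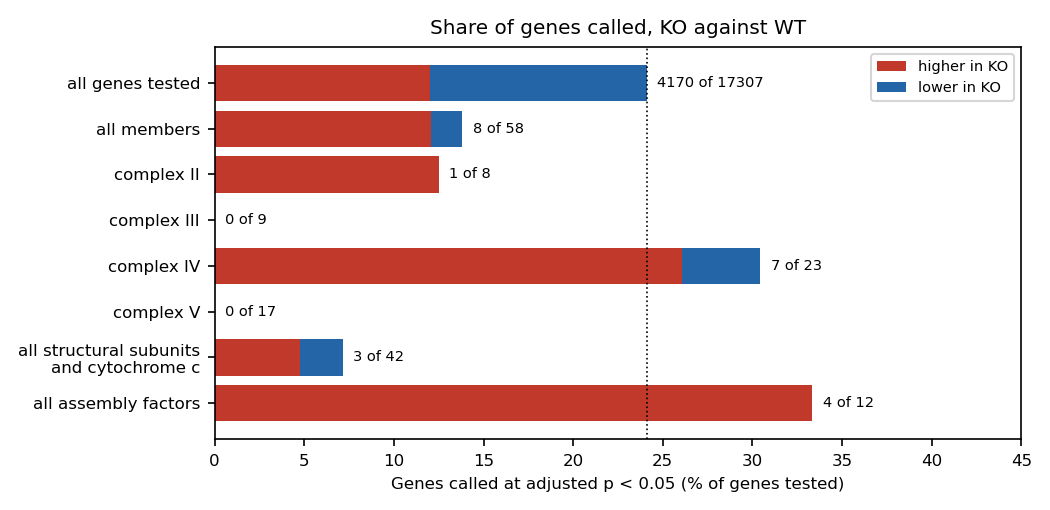
Percentage of tested genes called (adjusted p under 0.05), split into those higher (red) and those lower (blue) in KO, for all genes, all members, each complex, structural subunits and assembly factors. The dotted line marks the 24.1% of all genes, and complexes III and V have 0 called members.

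Complex II had 1 called member of 8, and this was an assembly factor. Sdhaf1, which helps to mature the iron-sulfur subunit, was at 60.4, 58.4 and 57.1 CPM in WT replicates 1 to 3 and at 81.0, 82.1 and 80.5 CPM in KO replicates 1 to 3. Every KO library lay above every WT library. The log2 fold change was 0.47 (SE 0.037, adjusted p = 1.00e-06 by edgeR's quasi-likelihood test), a rise of 38.4% with a 95% interval of 31.0% to 46.3%. Exons of Sdhaf1 (chromosome 7 of GRCm38, 30321406 to 30323895, minus strand) overlap E130208F15Rik on the opposite strand over 69.6% of their bases. That gene had 0 counts in 5 of the 6 libraries, and without stated strand use in the counting, reads of such a pair cannot be told apart.

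The catalytic and membrane subunits of complex II did not pass the test. Sdha, the flavoprotein that oxidizes succinate, was at 223.3, 226.5 and 213.5 CPM in WT and 229.6, 224.9 and 223.8 CPM in KO, and the groups overlapped. Sdhb, the iron-sulfur subunit, was at 88.2, 85.8 and 85.1 CPM in WT and 88.6, 88.7 and 84.6 CPM in KO, also with overlap. For Sdhb the difference was 1.005% (95% interval -4.34% to 6.65%, adjusted p = 0.825 by edgeR's quasi-likelihood test). The membrane anchors Sdhc and Sdhd had log2 fold changes of -0.11 (95% interval of the difference -14.5% to -0.034%, edgeR adjusted p = 0.142) and 0.01 (-5.23% to 7.07%, edgeR adjusted p = 0.889). Sdhaf2, which attaches the flavin to Sdha, was at 38.7 to 39.5 CPM in WT and 36.0 to 36.9 CPM in KO, so that the groups did not overlap, and its adjusted p was 0.0684 in edgeR's quasi-likelihood test. Sdhaf2 was called as lower in 5 of 16 alternatives, with upper-quartile factors, library size alone, DESeq2, limma-voom or a mean of at least 1 CPM. Without WT replicate 1, Sdhc was called as lower in place of Sdhaf2, so that complex II had 2 calls. In that fit, 28.2% of all genes were called.

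No member of complex III (9 tested) was called in edgeR's quasi-likelihood test, 1 was below an unadjusted p of 0.05 (34.7% of all genes were) and 1 was called by DESeq2. Cyc1, the cytochrome c1 subunit, had the largest log2 fold change of the complex at 0.14 (SE 0.050, adjusted p = 0.0644 by edgeR's quasi-likelihood test). It was at 123.1, 107.3 and 108.1 CPM in WT and 128.0, 123.2 and 121.1 CPM in KO, so WT replicate 1 lay within the KO range and the other WT libraries below it. Cyc1 was the member that DESeq2 called (adjusted p = 0.0396), and edgeR called it without WT replicate 1 (adjusted p = 0.000341). Uqcrc1, a core subunit with the highest CPM of the complex, was at 197.6, 190.6 and 199.5 CPM in WT and 196.2, 186.8 and 182.6 CPM in KO. The difference in Uqcrc1 was -3.76% (95% interval -8.86% to 1.63%, adjusted p = 0.312 by edgeR's quasi-likelihood test). Uqcrfs1, the Rieske iron-sulfur protein, and Uqcrh were higher in each KO library than in every WT library by small margins, with 77.2 to 78.9 CPM against 79.0 to 81.3 CPM and 90.6 to 95.9 CPM against 96.4 to 97.5 CPM, and neither passed the test. Cycs, the mobile carrier cytochrome c, was at 23.4, 23.9 and 26.7 CPM in WT and 25.1, 23.8 and 25.4 CPM in KO, with a 95% interval of the difference from -7.59% to 9.74% and an adjusted p of 0.927 from edgeR's quasi-likelihood test. Of the 50-base stretches of Cycs, 26.2% also occur in transcripts of other genes, mostly Gm10053.

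Complex IV held 7 of the 8 called members, 30.4% of its 23 tested members against 24.1% of all genes. Without WT replicate 1, 11 members of complex IV and 28.2% of all genes were called. Among its 11 structural subunits, Cox7a2l fell and Cox5b and Cox6c rose. Among its 8 assembly factors, Cox11, Cox16 and Cox17 rose, and among the 4 isoforms tested, Cox6b2 rose. Cox4i1, the structural subunit with the highest CPM, was at 248.8, 237.4 and 247.8 CPM in WT and 258.5, 262.5 and 252.5 CPM in KO, without overlap and without passing the test (log2 fold change 0.08, adjusted p = 0.123 by edgeR's quasi-likelihood test).

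Cox7a2l, a Cox7a-related protein described as a factor of supercomplexes of III and IV, was at 210.8, 219.7 and 228.9 CPM in WT and 164.0, 157.1 and 163.6 CPM in KO. Neither its protein, nor its function in this strain, nor supercomplexes were measured here. The lowest WT library was above the highest KO library. The log2 fold change was -0.44 (SE 0.037, adjusted p = 1.86e-06 by edgeR's quasi-likelihood test), a difference of -26.5% (95% interval -30.5% to -22.3%). Per transcript length, the ratio of Cox7a2l to its relative Cox7a2 was 5.49 ± 0.250 (SD, n = 3) in WT and 4.23 ± 0.169 (SD, n = 3) in KO, without overlap. Cox7a2 itself was at 22.9 to 25.9 CPM in WT and 22.7 to 24.1 CPM in KO. Cox7a2l spans 83501918 to 83517330 on chromosome 17 of GRCm38, and 13.8% of its 50-base stretches also occur in other transcripts, mainly of Gm6969.

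The subunits that rose in complex IV did so by small amounts. Cox6c, a small nuclear subunit, was at 51.3, 53.9 and 57.0 CPM in WT and 60.8, 63.8 and 62.7 CPM in KO. Cox5b, which lies on the matrix side of the complex, was at 81.4, 82.3 and 83.8 CPM in WT and 90.6, 92.4 and 85.8 CPM in KO. The groups did not overlap for either gene. The log2 fold change was 0.21 for Cox6c (SE 0.044, adjusted p = 0.00383) and 0.12 for Cox5b (SE 0.038, adjusted p = 0.0368) in edgeR's quasi-likelihood test. The call of Cox5b was lost in 6 of 16 alternatives, among them each fit that left out WT replicate 2, KO replicate 1 or KO replicate 2, with adjusted p up to 0.182. Cox5a, the partner of Cox5b, had a log2 fold change of -0.15 (adjusted p = 0.0682 by edgeR's quasi-likelihood test), with 56.5, 62.1 and 67.3 CPM in WT and 57.2, 55.3 and 55.0 CPM in KO. Cox5a was called as lower in 6 of 16 alternatives, and its log2 fold change was -0.21 without WT replicate 1 (edgeR adjusted p = 0.00136) and -0.09 without WT replicate 3 (edgeR adjusted p = 0.216).

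The assembly factors that rose in complex IV include the copper proteins Cox11 and Cox17. Cox17, the chaperone that supplies copper in the intermembrane space, was at 22.1, 21.6 and 20.9 CPM in WT and 24.7, 24.7 and 25.4 CPM in KO (log2 fold change 0.21, SE 0.048, adjusted p = 0.0063 by edgeR's quasi-likelihood test). Cox11, which delivers copper to the catalytic core, was at 15.3, 12.9 and 12.3 CPM in WT and 17.8, 19.3 and 18.0 CPM in KO (log2 fold change 0.44, SE 0.075, adjusted p = 0.000896 by edgeR's quasi-likelihood test). All KO libraries were above all WT libraries for both. Cox19, another copper-related factor, overlapped between the groups (12.7 to 15.8 CPM in WT, 13.5 to 16.0 CPM in KO). Cox10 and Cox15, the enzymes of heme A synthesis, had log2 fold changes of 0.08 and -0.07 and were not called. Of the exon bases of Cox11, 48.3% overlap Tom1l1 on the opposite strand, which was at 1.36 to 2.15 CPM over all libraries and was not called.

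Cox16, which takes part in building the copper center of Cox2, was at 16.2, 15.7 and 16.7 CPM in WT and 19.3, 17.9 and 18.0 CPM in KO. The groups did not overlap, and the log2 fold change was 0.19 (SE 0.055, adjusted p = 0.0273 by edgeR's quasi-likelihood test). This call was lost in 5 of 16 alternatives, among them each fit that left out WT replicate 2 or any 1 KO replicate, with adjusted p up to 0.12. The annotation places 56.8% of the exon bases of Cox16 in the transcript Gm20498 on the same strand.

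Cox6b2, the isoform of Cox6b1 known from testis, showed the largest rise of all members. It was at 1.65, 1.19 and 1.06 CPM in WT (143 to 300 counts) and 2.79, 3.22 and 2.94 CPM in KO, and the groups did not overlap. The log2 fold change was 1.18 (SE 0.157, adjusted p = 0.000116 by edgeR's quasi-likelihood test), a fold of 2.27 with a 95% interval of the rise from 79.1% to 186.9%. Per transcript length, Cox6b2 made up 2.51% ± 0.823 (SD, n = 3) of Cox6b1 and Cox6b2 together in WT and 5.87% ± 0.408 (SD, n = 3) in KO, so Cox6b1 remained the main isoform in every library. Cox6b2 shares no 50-base stretch with other transcripts and overlaps no annotated exon. The other tested isoforms, Cox4i2, Cox6a2 and Cox7a1, stayed at or below 0.52 CPM in every library and were not called.

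**Figure D2:**
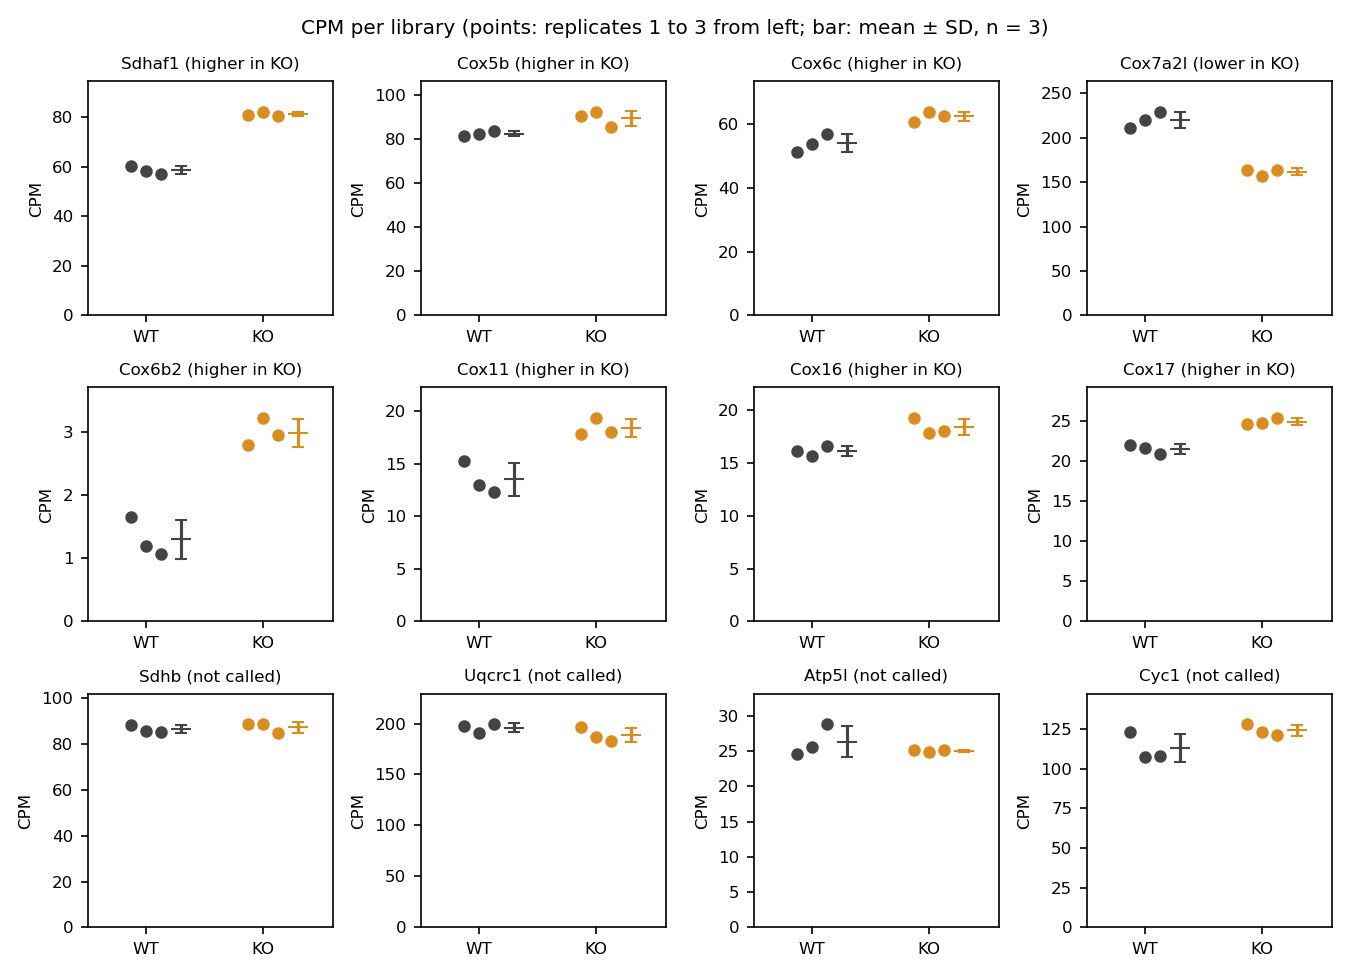
CPM in each library, as points for replicates 1 to 3 from left to right, with mean and SD (n = 3), for the 8 called members and for Sdhb, Uqcrc1, Atp5l and Cyc1; each axis starts at 0. Cox7a2l is the panel in which all KO points lie below WT, the other 7 called members have all KO points above WT, and the last 4 panels show overlap.

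Complex V had 0 called members of 17 in edgeR's quasi-likelihood test. At an unadjusted p under 0.05, 6 of the 17 passed, against 34.7% of all genes, and DESeq2 called 1, Atp5f1. Atp5a1 and Atp5b form the catalytic head and were at 688.8 to 710.7 CPM and 660.5 to 687.5 CPM in WT and at 694.4 to 717.2 CPM and 657.8 to 686.8 CPM in KO. Both overlapped between the groups, and the 95% interval for Atp5a1 ran from -4.00% to 5.31% (adjusted p = 0.89 by edgeR's quasi-likelihood test). Atp5l, subunit g of the membrane part where synthase dimers meet, was at 24.6, 25.5 and 28.8 CPM in WT and 25.1, 24.8 and 25.1 CPM in KO. All KO libraries of Atp5l lay within the WT range (log2 fold change -0.07, 95% interval of the difference -12.5% to 4.12%, adjusted p = 0.458 by edgeR's quasi-likelihood test). That log2 fold change was -0.003 without WT replicate 3 and -0.11 without WT replicate 1, and neither passed the test.

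Over complex V as a whole, the groups did not overlap for 5 of 17 subunits (29.4%, against 38.3% of all genes). Of these 5, 3 were among the 4 subunits of the peripheral stalk, and they moved in both directions. This subgroup was set apart after its values were seen. Atp5f1, subunit b of this stalk, was at 107.2, 115.1 and 124.7 CPM in WT and 105.1, 105.8 and 105.2 CPM in KO, and Atp5o, which ties the stalk to the head, was at 94.6 to 102.4 CPM and 89.4 to 92.3 CPM. Both KO groups lay below WT (adjusted p = 0.0575 and 0.0907 from edgeR's quasi-likelihood test). Atp5j, another stalk subunit, was at 56.6 to 59.8 CPM in WT and 61.6 to 62.1 CPM in KO, with KO above WT (log2 fold change 0.09, edgeR adjusted p = 0.116), whereas Atp5h overlapped (96.3 to 99.9 CPM and 92.8 to 96.5 CPM). The fall of Atp5f1 passed the test in 7 of 16 alternatives, with adjusted p down to 0.00122 without WT replicate 1 in edgeR. Atp5g2, 1 of the 3 genes that encode the same c-ring protein, had the largest log2 fold change of the complex at 0.25 (edgeR adjusted p = 0.127), with 4.47, 4.72 and 5.84 CPM in WT and 5.18, 6.36 and 6.06 CPM in KO. The other c-ring genes, Atp5g1 and Atp5g3, had log2 fold changes of 0.03 and 0.00. The choice of libraries mattered here: 5 members of complex V were called without WT replicate 1 and 1, Atp5g2, without WT replicate 3. In these fits, 28.2% and 22.9% of all genes were called.

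**Figure D3:**
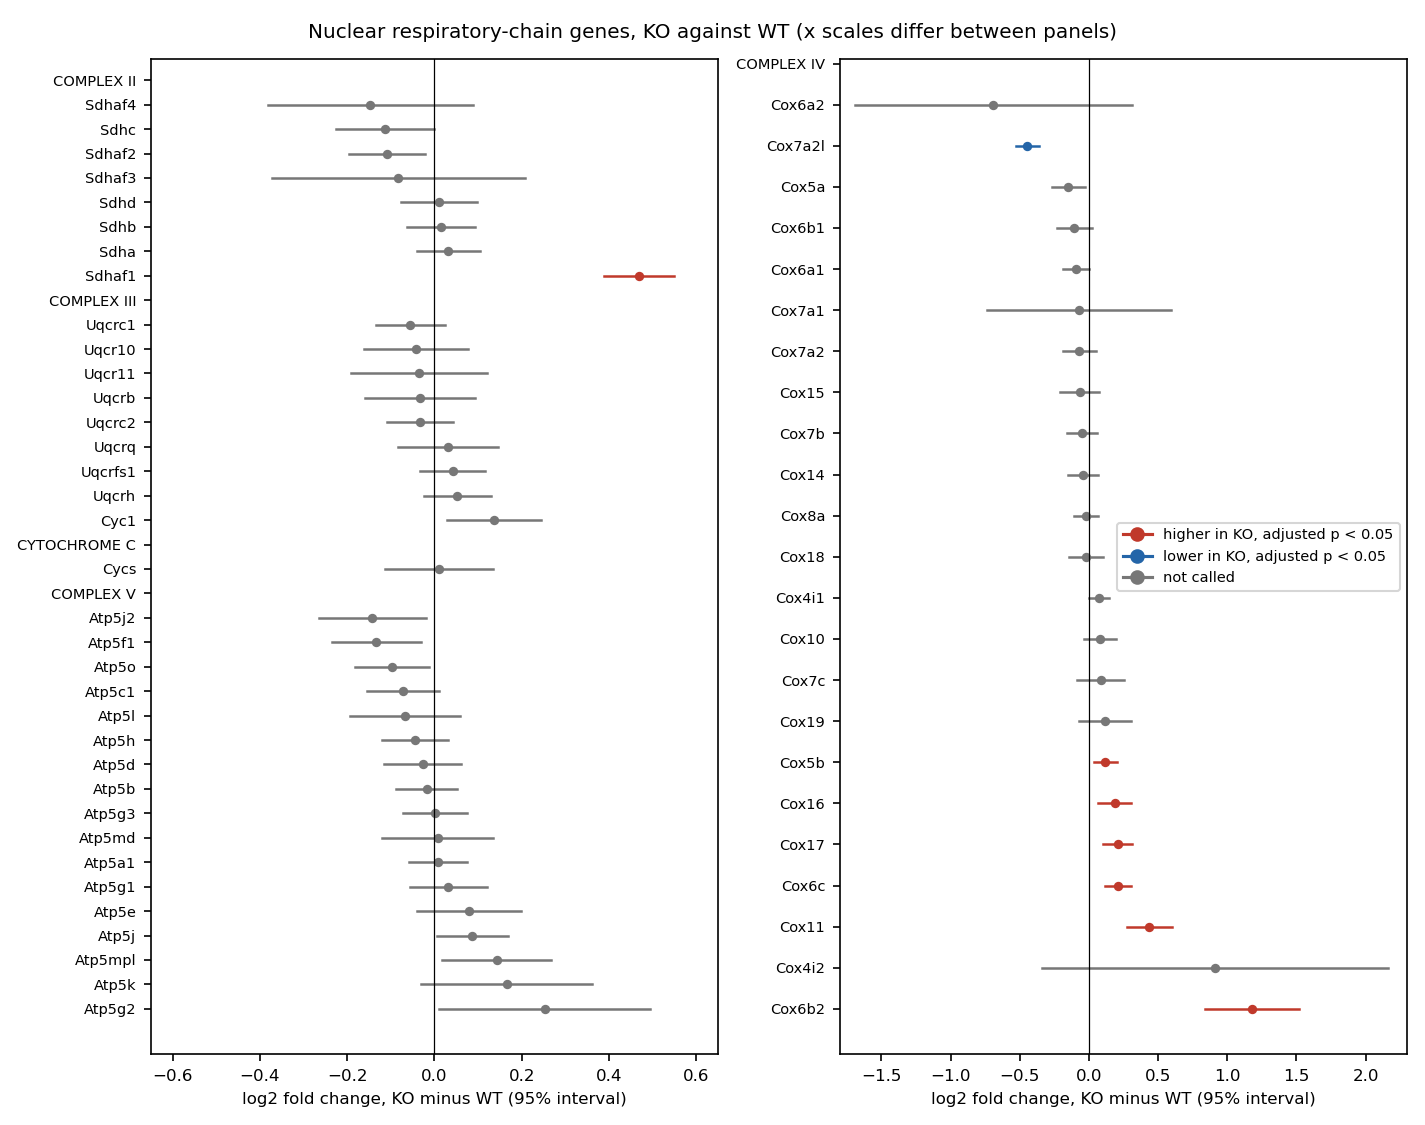
Log2 fold change (KO minus WT) with its 95% interval for the 58 tested members, sorted within each complex, with complex IV in the right panel on a wider scale. Red marks the members called as higher and blue the member called as lower in KO, and most gray intervals cross 0.

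A missed threshold leaves room for differences, and the intervals give their size. For the 39 structural subunits and carriers that were not called, the unadjusted 95% intervals ran from -16.8% (Cox5a) to 40.9% (Atp5g2). Of these, 37 lay wholly between -20% and 25%. The intervals spanned -14.5% to 7.52% in complex II, -12.4% to 18.4% in complex III, -16.8% to 19.5% in complex IV and -16.7% to 40.9% in complex V. All structural subunits and cytochrome c together had 3 calls of 42 tested (7.14%), and the 12 assembly factors had 4 (33.3%), all higher, against 24.1% of all genes (12.0% higher). The difference between these classes was not tested. These 12 are only the factors whose symbols fit the rule. All 4 called ones share exon bases with another gene: 69.6% for Sdhaf1, 48.3% for Cox11, 56.8% for Cox16 and 4.5% for Cox17. In the lists of further factors read below, 1 of 7 was called for complex III and 0 of 6 for complex V. For complex IV, 2 of 20 were called, 1 of them the subunit Ndufa4.

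The summed level of the structural subunits that fit the symbol rule changed little in each complex. The 4 subunits of complex II summed to 402.2 ± 5.39 CPM in WT and 405.4 ± 7.06 CPM in KO, and the 9 of complex III to 724.9 ± 8.52 CPM and 730.8 ± 13.3 CPM (SD, n = 3 each). The 17 of complex V summed to 2538 ± 55.9 CPM in WT and 2509 ± 41.8 CPM in KO, and the groups overlapped in all 3 complexes. The 11 of complex IV summed to 1106 ± 34.6 CPM in WT and 1055 ± 17.1 CPM in KO, a difference of -4.59% without overlap. Without Cox7a2l, which was set aside after its values were seen, the remaining complex IV subunits summed to 886.1 ± 26.7 CPM in WT against 893.6 ± 19.2 CPM in KO (SD, n = 3 each), with overlap. Complex V took between 49.6% and 50.3% of the summed CPM of all members in each library.

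**Figure D4:**
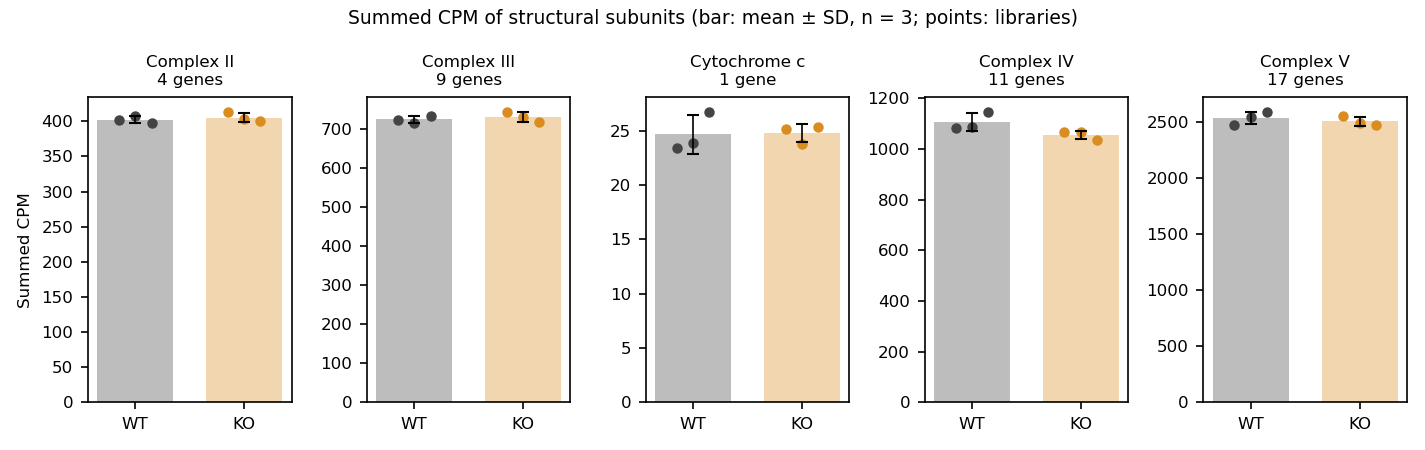
Summed CPM of the structural subunits of each complex and of cytochrome c, without Ndufa4, which the symbol rule leaves out. Bars show the mean with SD (n = 3) and points the libraries, each axis starting at 0. Complex IV is the panel in which all KO points lie below all WT points, and the difference of their means is -4.59%.

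Levels of different genes were compared per length, as CPM per kb of 1 principal GENCODE transcript. In WT, the most abundant subunits on this scale were Atp5b at 353.9 ± 7.98 CPM per kb in complex V, Cox4i1 at 319.8 ± 8.24 in complex IV, Uqcrh at 171.1 ± 4.98 in complex III and Sdha at 76.2 ± 2.33 in complex II (SD, n = 3 each). Sdha and Sdhb, which pair in the complex, were at 76.2 ± 2.33 and 75.6 ± 1.45 CPM per kb and did not differ beyond their spread. Sdhd and Sdhc of the same complex were lower, at 43.3 ± 1.46 and 13.1 ± 0.788 CPM per kb. The SD between libraries does not include the uncertainty of the transcript length. Cycs was at 7.90 ± 0.574 CPM per kb in WT, with an annotated transcript of 3123 bases. Levels of genes with long annotated 3' ends, such as Cycs, Sdhc and Atp5g1, depend on this choice of transcript. Cox7a2l stood at 204.3 ± 8.43 CPM per kb in WT and 150.1 ± 3.60 in KO, which moved it below Cox8a but left it above Cox6c.

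**Figure D5:**
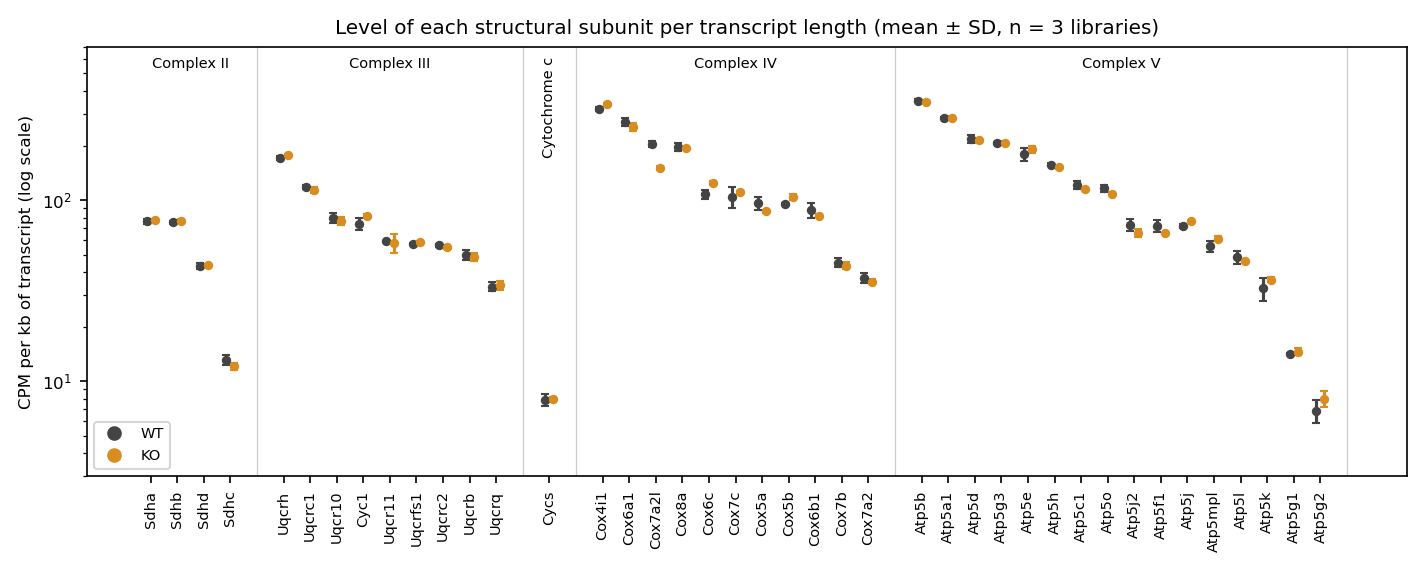
Mean level with SD (n = 3 libraries) of each structural subunit in WT (gray) and KO (orange), as CPM per kb of transcript on a log scale, sorted by the WT level within each complex. WT and KO lie close together for most genes, and Cox7a2l drops from 204.3 to 150.1 CPM per kb.

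Other genes of the pathway were read from lists of assembly factors, mitochondrially encoded subunits and regulators. Of 52 tested, 4 were higher and 2 lower in KO in edgeR's quasi-likelihood test (11.5%, against 24.1% of all genes). Ndufa4, which despite its name is regarded as a subunit of complex IV, was at 40.0 to 46.7 CPM in WT libraries and at 26.3 to 27.4 CPM in KO libraries. Its log2 fold change of -0.69 (adjusted p = 1.39e-06 by edgeR's quasi-likelihood test) and that of Cox7a2l were the falls called among the complex IV proteins examined. Coa7, an assembly factor of complex IV, rose from 7.16 ± 0.599 to 9.73 ± 0.621 CPM (log2 fold change 0.43, adjusted p = 0.00181 by edgeR's quasi-likelihood test). Hccs, which attaches heme to cytochrome c and cytochrome c1, rose from 25.7 ± 1.02 to 29.5 ± 0.676 CPM (log2 fold change 0.20, adjusted p = 0.00848 by edgeR's quasi-likelihood test), whereas Cycs and Cyc1 were not called.

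None of the 6 further complex V factors and none of the 6 mitochondrially encoded subunits of complexes III to V passed edgeR's quasi-likelihood test, and at an unadjusted p under 0.05, 1 (Tmem70) and 0 did, against 34.7% of all genes. The mitochondrially encoded subunits summed to 15718 to 19667 CPM in WT and 15093 to 16766 CPM in KO, with overlap and a median log2 fold change of -0.21. Among the regulators, Gabpb2, a subunit of the ETS factor GABP, fell from 174.4 ± 2.52 to 156.2 ± 3.89 CPM (log2 fold change -0.16, edgeR adjusted p = 0.0035). Ppargc1b, a coactivator of mitochondrial genes, rose from 15.1 ± 0.797 to 18.1 ± 0.573 CPM (log2 fold change 0.25, edgeR adjusted p = 0.00654), and Tfb2m, a mitochondrial transcription factor, from 26.2 ± 1.57 to 30.7 ± 1.39 CPM (log2 fold change 0.23, edgeR adjusted p = 0.00844). The call of Tfb2m was lost without WT replicate 2 (edgeR adjusted p = 0.0604) and without KO replicate 3 (edgeR adjusted p = 0.0513). Without WT replicate 1, 10 of the 52 genes of these lists and 28.2% of all genes were called. Nrf1, Gabpa, Yy1 and Tfam were not called.

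Of the members found in the annotation, 18 tested ones had over 10% of their 50-base stretches in other transcripts or over 10% of their exon bases in another gene, and 5 of these were called (Sdhaf1, Cox5b, Cox7a2l, Cox11 and Cox16). Of the 39 tested members at or below 10% on both measures, 3 were called (7.69%), namely Cox6b2, Cox6c and Cox17. The share called was 27.8% among the 18 members above this limit and 24.1% among all genes tested. Counts of members above this limit are uncertain where reads were split between copies. Gm6969 and Gm20498 were not among the counted genes under these symbols, and how their reads were handled is not given.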

How the data were processed

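Gene counts of 6 libraries were deposited by the authors as raw counts per gene symbol in a table with 32285 rows (40 repeated symbols). The submitters' processing notes name HISAT2, DESeq2 and mm10, without versions, and how this table was counted, including strand use, is not given in the sources used here.

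The members and lists were chosen with earlier results of these data known. Counts were tested with edgeR 4.0.16 in R 4.3.3 (robust quasi-likelihood F-test, TMM scaling, 17307 genes kept by filterByExpr, Benjamini-Hochberg adjustment over all of them, calls at an adjusted p under 0.05), after the script had been tested on simulated data. TMM factors ranged from 0.987 to 1.014. CPM is edgeR's count relative to the scaled library size. Totals of 133283969 to 209041812 counts set the precision, and SDs and intervals rest on 3 libraries per group.

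Named were Zfp335, Atp5l, Uqcrc1, Sdhb, Cyc1, Cycs, every called member, the most abundant and the most changed member of each complex, the complex II subunits, members that failed the filter, Ndufa4, the smallest adjusted p of each pathway list, called regulators and the leading marker of each other cell type. Xist, the Y-linked genes, the Treg genes, Csf1r, Adgre1 and further members were named after their values were seen. They show a subgroup, the groups' separation or list genes that moved differently. Lengths, positions and overlaps come from GENCODE for GRCm38 (60 members matched), and promoters from RefSeq (GRCm38.p6). Alternatives were other scalings and filters, DESeq2 1.42.0, limma-voom (limma 3.58.1), a replicate block, leaving out each library, a 1.5-fold cutoff and, added after seeing the data, members with at most 10% shared sequence.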

Additional observations from a re-analysis of the deposited data

How the results depend on the processing

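The calls of Cox7a2l, Sdhaf1, Cox6b2, Cox11, Cox6c and Cox17 kept their direction and stayed under an adjusted p of 0.05 in all 16 alternatives, and Cox6b2 was the 1 member at the study's cutoffs in each. The number of members called was 13 with limma-voom and quantile normalization, 1 with a 1.5-fold cutoff and 3 among members with at most 10% shared sequence, against 8 (6 to 19 when 1 library was left out). In complex II, 2 were called (Sdhaf1 and Sdhaf2) with upper-quartile factors, library size alone, DESeq2, limma-voom or a mean of at least 1 CPM (leaving out 1 library, 1 to 2). In complex III, 1 was called with DESeq2 (leaving out 1 library, 0 to 1), and in complex IV leaving out 1 library gave 5 to 11. In complex V, 2 were called with upper-quartile factors, 3 with library size alone, 1 with DESeq2, 3 with limma-voom and 1 with a mean of at least 1 CPM (leaving out 1 library, 0 to 5). The cause was not tested. The other pathway genes called numbered 5 to 10 when 1 library was left out, and 10 was the number without WT replicate 1. With 1 library left out, between 15.4% (without WT replicate 2) and 28.2% (without WT replicate 1) of all genes were called.

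Same-numbered WT and KO libraries hardly deviated together (r = 0.0284, 0.00819 and 0.0326 for replicates 1, 2 and 3). Libraries of different numbers had r from -0.0372 to 0.0188. Replicates 1 and 3 thus correlated best with their own number, whereas WT replicate 2 correlated better with KO replicate 1 (0.0188). All of these values were near 0. The replicate numbers were therefore not read as pairs. With a replicate block 10 members were called, the same 8 with Cyc1 (log2 fold change 0.14) and Atp5f1, which gave 1 call each in complexes III and V.

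Cyc1 had a log2 fold change of 0.14 with DESeq2 and of 0.10 to 0.20 when 1 library was left out. Log2 fold changes near 0 turned sign with the scaling, in the order upper-quartile factors, library size alone and limma-voom: Sdhb -0.000101, -0.0163 and -0.00800, Sdhd -0.00382, -0.0203 and -0.0128, and Atp5a1 -0.00633, -0.0229 and -0.0382. Cycs was at -0.00435 and -0.0207 with the first 2, and Sdha at -0.00585 with limma-voom. Leaving out 1 library gave -0.0243 to 0.0664 for Cycs, -0.0192 to 0.0266 for Sdhd and -0.00684 to 0.0204 for Atp5a1. None of these 5 genes passed the test under any alternative. Low counts limit the precision for Cox6b2 and for the isoforms under 1 CPM.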
